A study of Mus musculus with 4 samples.

Results

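Gm8797, Ubb and Rps27a are 3 of the 31253 genes counted in this single-cell RNA sequencing experiment, and all 3 code ubiquitin. They were picked by name, as the genes whose listed symbol was Gm8797, Ubb or Rps27a, after their levels in both genotypes were known. Their differences between the genotypes are therefore given as descriptions without a test. Live CD45+ leukocytes came from the brains of mice with CT2a, a C57BL/6 glioma line, on day 14 after intracranial implantation. The 4 WT mice were on the C57Bl/6 background, and the 4 CaMKK2 KO mice lacked the kinase Camkk2 in the germline (CaMKK2-/-) on the same labelled background. Mutant lines of the study came from C57BL/6 or had been backcrossed to that strain, per its methods. Cells of each mouse carried their own hashtag antibody, and the mice of a genotype shared 1 10X channel, so that genotype and channel cannot be told apart.

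Ubiquitin is a small protein that cells attach to other proteins, often to send them to the proteasome. Mammals make it as fusions that proteases cut apart. Ubb codes a chain of ubiquitin units, while Rps27a codes 1 unit fused to a protein of the small ribosomal subunit. Gm8797 is a predicted gene that GENCODE lists as protein coding. Ubiquitin chains also mark signalling complexes in macrophages and lymphocytes, and Ubb is known as a gene that cells raise under proteotoxic stress.

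The sequences below show how alike the genes are that the reads had to be split between. They come from the GENCODE M21 transcripts on GRCm38, the assembly also named mm10. Gm8797 (ENSMUSG00000103034) lies at chr3:5750806-5751295 on the plus strand and has 1 exon of 490 bases and 1 transcript. Ubb (ENSMUSG00000019505) lies at chr11:62551171-62553213 on the plus strand, and Rps27a (ENSMUSG00000020460) at chr11:29545846-29548109 on the minus strand. The open reading frame of Gm8797 starts at base 99 of its transcript and holds 77 codons before the stop codon, the 76 codons of a ubiquitin unit and 1 more. Its unit, of 228 bases, is printed with the bases that differ from the last unit of Ubb in capitals, and that Ubb unit with the same positions in capitals. In the unit of Rps27a, capitals mark the bases that differ from Gm8797.
Gm8797: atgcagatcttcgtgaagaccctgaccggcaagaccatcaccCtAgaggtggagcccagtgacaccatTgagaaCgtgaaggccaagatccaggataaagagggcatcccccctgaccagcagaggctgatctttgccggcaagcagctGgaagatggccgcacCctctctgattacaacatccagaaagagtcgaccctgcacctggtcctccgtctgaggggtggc
Ubb last unit: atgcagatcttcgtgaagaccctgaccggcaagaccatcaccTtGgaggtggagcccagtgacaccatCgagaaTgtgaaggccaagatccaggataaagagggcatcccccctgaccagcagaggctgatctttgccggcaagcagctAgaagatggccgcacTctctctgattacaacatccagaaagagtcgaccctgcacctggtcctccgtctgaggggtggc
Rps27a unit: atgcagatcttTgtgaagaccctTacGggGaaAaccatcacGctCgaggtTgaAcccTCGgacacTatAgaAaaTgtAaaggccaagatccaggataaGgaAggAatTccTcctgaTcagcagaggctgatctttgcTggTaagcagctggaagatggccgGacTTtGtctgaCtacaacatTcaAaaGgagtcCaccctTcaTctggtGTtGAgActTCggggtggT

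Gm8797 and the last Ubb unit differed by 6 bases, which are T43C, G45A, C69T, T75C, A150G and T165C, with the Ubb base first and positions counted from 1 at the A of the start codon. None of them changed the coded residue. The 4 units of Ubb differed from Gm8797 by 6, 3, 8 and 6 bases, or 97.4%, 98.7%, 96.5% and 97.4% identity. The Rps27a unit differed by 44 bases (80.7% identity). All of these units code the same residues, with 0 differences from Gm8797.

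The likeness to Ubb reached beyond the unit. The 98 bases of Gm8797 before its start codon were the same as in Ubb-201, where 92 of them lie in exon 1 and 6 in exon 2, on both sides of an intron of 544 bases that Gm8797 lacks. After the unit, 155 bases of both transcripts were equal and 0 were different, with 1 gap of 1 base, and Gm8797 ran on for 9 bases past the end of Ubb, all of them A. The gap falls in a run of A, shown in capitals here because it is the single inner difference between the transcripts after the unit.
Gm8797: aacctctgttAAAAAtgttaataaa
Ubb: aacctctgttAAAAAAtgttaataaa

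The run holds 5 A in Gm8797, 42 bases from its transcript end, and 6 A in Ubb, 33 bases from its end. Of the 400 windows of 91 bases in Gm8797, the length of the read, 206 (51.5%) were also found without any difference in Ubb, and 0 in Rps27a. Among the 100 windows nearest to the end, 58 were found in Ubb. Of the 100 windows ending 100 to 199 bases from it, 39 were found there. The counts were 33 of 100 at 200 to 299 bases and 76 of 100 at 300 to 399. Counts of Gm8797 and Ubb are thus uncertain, and their sum is given beside each of them. Reads that fit both genes equally well are not counted for either, so the sum does not recover such reads.

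Cells were sorted into 13 immune classes by the UMIs of marker genes, and 12 of them were compared, since plasmacytoid DC (pDC) were too few (18 WT and 22 CaMKK2 KO cells). A class name such as TAM (tumor-associated macrophage) stands for TAM-like cells within that gate. The names cMono and ncMono stand for classical and non-classical monocytes, and other T for T cells with neither or both of the CD4 and CD8 calls. The 5114 WT and 5724 CaMKK2 KO cells held 12264806 to 23065929 UMIs per mouse in 1026 to 1688 cells, with a median of 12956 UMIs per WT cell and 11650 per CaMKK2 KO cell. Among 17 markers that no gate used, 16 were highest in their own class of the 12 compared, while Flt3, listed for DC2, was higher in DC1 (208 CPM, UMIs per 1000000 UMIs of the class) than in DC2 (102 CPM). In pDC, Irf8, listed for DC1, was higher (3337 CPM) than in DC1 (2196 CPM), and Plac8, listed for cMono, was level with cMono (4169 and 4168 CPM). Some classes held markers of others. The T gate did not exclude NK markers, and Ncr1 and Klrb1c were 116 and 171 CPM in other T, against 373 and 525 in NK. In DC1, the pDC markers Ly6d, Klk1 and Ccr9 were 208, 141 and 138 CPM, against 2395, 818 and 1545 in pDC. In ncMono, the cMono markers Hp and Chil3 were 413 and 2843 CPM, against 404 and 4333 in cMono. The libraries shared 42 cell barcodes, 9 of them among the cells used. Cell numbers of the classes differed between the genotypes. They were 1736 WT and 1274 CaMKK2 KO cells in TAM, 681 and 1352 in cMono, and 124 and 384 in CD4 T. Values over all cells hold this difference too, and its part in them was not tested. Camkk2 itself was 29.7 CPM ± 4.80 (SD, n = 4 mice) in the WT mice and 16.7 CPM ± 4.16 in CaMKK2 KO mice (log2 ratio -0.84 ± 0.18 SE, adjusted p = 0.0700 by edgeR's quasi-likelihood test), and 3′ UMIs do not show which of its exons were read. All CaMKK2 KO mice were below all WT mice for Camkk2 over all cells and in 6 of 12 classes, and it was called lower by edgeR in TAM (-1.12, adjusted p = 0.00149), cMono (-1.17, adjusted p = 0.00974) and microglia (-1.14, adjusted p = 0.0492).

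Gm8797 was low in every WT mouse and high in every CaMKK2 KO mouse. Its level over all cells was 8.09, 6.93, 6.16 and 5.62 CPM in the WT mice, and 159, 186, 161 and 202 CPM in the CaMKK2 KO mice. The groups stood far apart, with 497 UMIs in WT cells and 13121 in CaMKK2 KO cells. The means were 6.70 CPM ± 1.07 (SD, n = 4) and 177 CPM ± 20.7, a ratio of 26.4 and a log2 ratio of 4.73 ± 0.15 (SE).

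This gap appeared in myeloid and lymphoid cells alike. In TAM the WT mice were at 7.82, 7.80, 6.36 and 5.52 CPM and the CaMKK2 KO mice at 159, 201, 164 and 220 CPM (log2 ratio 4.75 ± 0.16 SE). In cMono, the blood-derived precursors of many macrophages, WT mice were at 6.34, 5.87, 5.30 and 4.68 CPM against 153, 185, 163 and 195 CPM in CaMKK2 KO mice (4.99 ± 0.16). In microglia, the resident macrophages of the brain, the values were 9.67, 5.39, 11.8 and 4.58 CPM against 155, 142, 141 and 158 CPM (4.23 ± 0.22). The lowest CaMKK2 KO mouse was above the highest WT mouse by over 100 CPM in each of these 3 classes.

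Lymphocytes gave the same picture. In CD4 T cells the 3 WT mice with at least 10 cells were at 12.5, 11.1 and 6.83 CPM, and the 4 CaMKK2 KO mice at 212, 215, 200 and 290 CPM (4.45 ± 0.30). In CD8 T cells, WT mice were at 10.4, 6.52, 6.73 and 9.31 CPM against 157, 171, 156 and 138 CPM. In B cells, WT mice were at 0, 15.7, 5.81 and 0 CPM against 149, 152, 119 and 198 CPM (4.02 ± 0.45). The WT values of B, other T and ncMono rest on 6, 6 and 3 UMIs in all.

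Each CaMKK2 KO mouse was above each WT mouse for Gm8797 in 12 of 12 classes. Over all cells 4.24% of the 11416 genes tested stood apart in that direction, and within a class 4.01% did so in TAM, 2.72% in microglia, 5.04% in cMono, 4.57% in ncMono, 5.79% in DC1, 8.80% in DC2, 7.22% in mature DC, 7.99% in NK, 7.76% in CD8 T, 8.83% in CD4 T, 7.99% in other T and 7.22% in B. Since Gm8797 was chosen on this contrast, nothing is read from its count. Within the CaMKK2 KO mice, CD4 T cells had the highest mean (229 CPM ± 41.2, n = 4) and DC2 the lowest (138 CPM ± 2.39, n = 3), with TAM at 186 CPM ± 29.1 between them. The ranges of CD4 T (200 to 290 CPM) and TAM (159 to 220 CPM) overlapped, and this order was not tested.

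**Figure D1:**
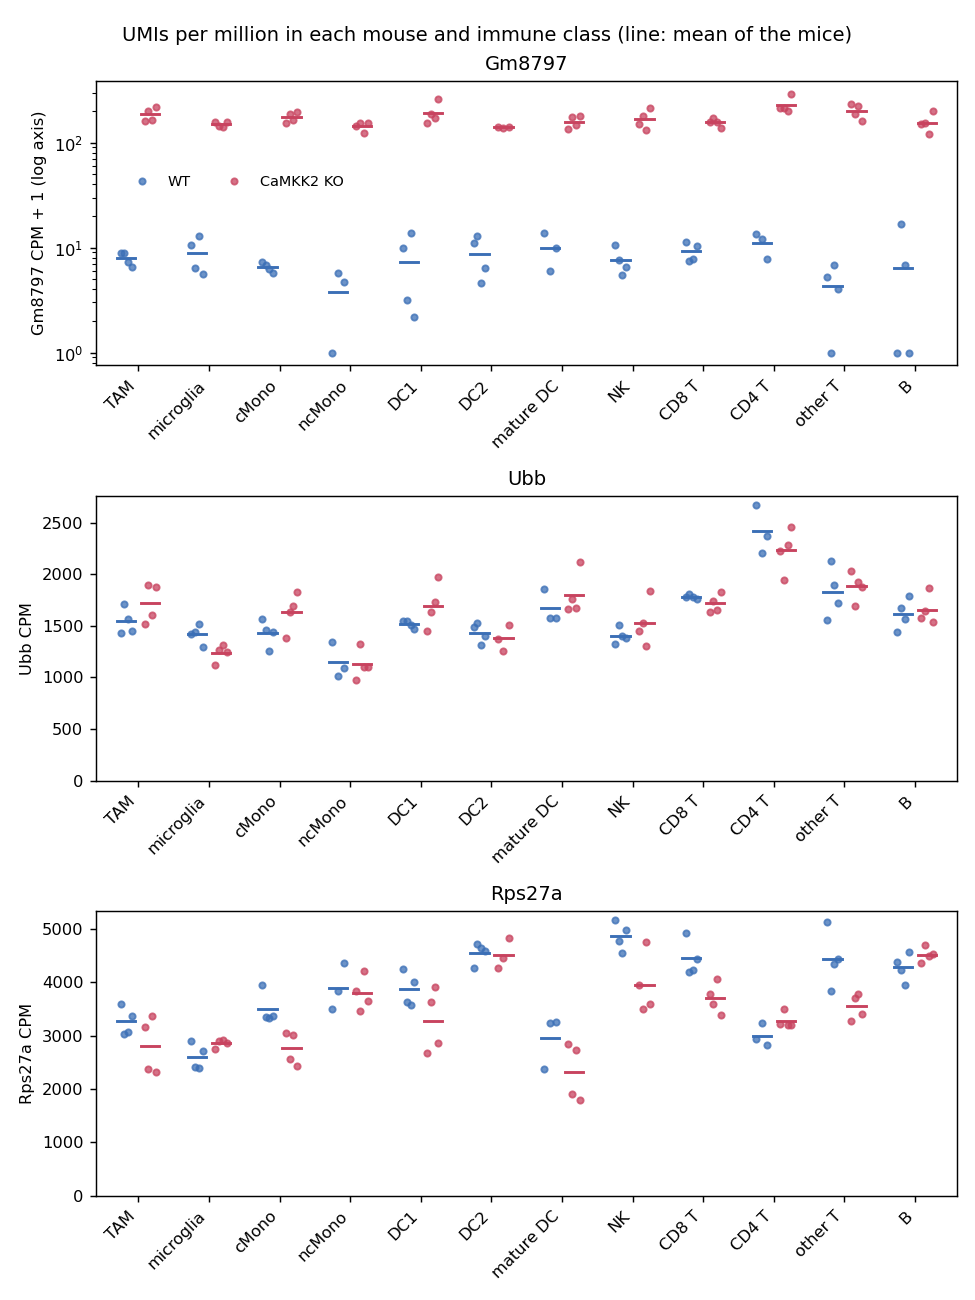
Each point is 1 mouse in 1 immune class, in CPM of that mouse and class, with WT in blue, CaMKK2 KO in red and the mean as a line; Gm8797 is drawn as CPM + 1 on a log axis, and Ubb and Rps27a on linear axes from 0. The CaMKK2 KO points of Gm8797 lie above all WT points in 12 of 12 classes, those of Ubb overlap the WT points in 12 of 12, and those of Rps27a lie below them in 3.

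The share of Gm8797 among the UMIs of Ubb plus Gm8797 shows how the counts of this pair were divided, whatever the total. It was 0.560%, 0.418%, 0.409% and 0.376% in the WT mice, and 9.55%, 9.84%, 9.12% and 10.1% in the CaMKK2 KO mice. Pooled over mice it was 497 of 114634 UMIs in WT (0.434%, exact 95% interval 0.396% to 0.473%) and 13121 of 136647 in CaMKK2 KO cells (9.60%, 9.45% to 9.76%). The interval covers counting error only.

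The share varied less between classes than between the genotypes, and its differences between classes were not tested. Class means ran from 0.189% in other T to 0.543% in microglia of WT mice (median 0.431%), and from 8.06% ± 0.700 (SD, n = 4) in mature DC to 11.3% ± 1.27 in ncMono of CaMKK2 KO mice (median 9.62%). CD8 T cells were near the low end (8.33% ± 0.870), and B cells varied most between mice, from 6.00% to 11.4%. In pDC the pooled share was 2 of 354 UMIs (0.565%) in the WT mice and 45 of 528 (8.52%) in CaMKK2 KO cells. In CaMKK2 KO cells with 1 to 5 UMIs of the pair the share was 14.5% (12.6% to 16.7%), in those with 6 to 15 it was 10.3%, with 16 to 30 it was 9.52%, and with 31 to 225 it was 9.39%. The matching WT values stayed between 0.406% and 0.442%.

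**Figure D2:**
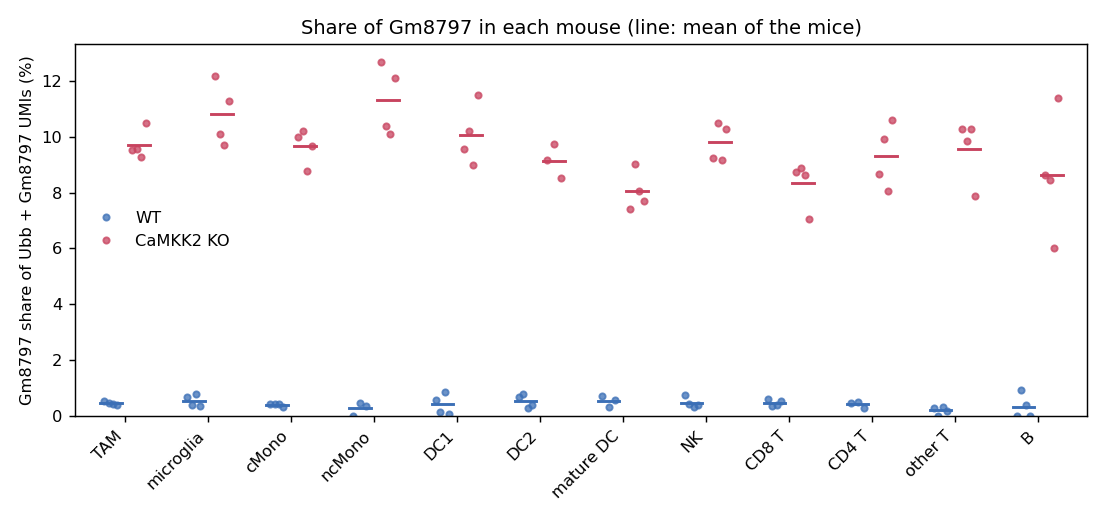
Each point is 1 mouse in 1 immune class, and the y axis is the percent of Ubb plus Gm8797 UMIs that were counted for Gm8797, with the mean of the mice as a line. WT points (blue) lie below 1% in every class, and CaMKK2 KO points (red) lie between 6.00% and 12.7%.

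Ubb, the polyubiquitin gene with 4 units, differed little between the genotypes. Over all cells it was 1438, 1649, 1502 and 1489 CPM in the WT mice and 1508, 1705, 1602 and 1803 CPM in CaMKK2 KO mice, and the groups overlapped. The means were 1519 CPM ± 90.9 (SD, n = 4) and 1655 CPM ± 128, a log2 ratio of 0.12 ± 0.09 (SE).

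By class the Ubb ratio lay on both sides of 0. The log2 ratio was above 0 in 7 classes and below 0 in 5, and the mice of the genotypes overlapped in 12 of 12. In cMono WT mice were at 1570, 1456, 1261 and 1438 CPM and CaMKK2 KO mice at 1378, 1636, 1692 and 1826 CPM, the highest ratio of a class (0.19 ± 0.12 SE). In microglia they were at 1426, 1436, 1521 and 1298 CPM against 1116, 1267, 1311 and 1250 CPM, the lowest ratio (-0.20 ± 0.10).

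With Gm8797 added to Ubb, the sum over all cells was 1446, 1656, 1508 and 1495 CPM in the WT mice and 1668, 1892, 1763 and 2005 CPM in CaMKK2 KO mice. The groups no longer overlapped, with means of 1526 CPM ± 90.7 (SD, n = 4) and 1832 CPM ± 148 and a ratio of 1.20. Within classes the sum stood apart in DC1 alone (1 of 12), at 1527 CPM ± 37.3 against 1890 CPM ± 263. Of all genes, 4.24% stood apart upward over all cells and 5.79% in DC1, and since the sum holds Gm8797, which was chosen on this contrast, nothing is read from it. Its ratio ran from 0.970 in microglia to 1.26 in cMono. The added 306 CPM over all cells held 135 CPM counted for Ubb and 170 CPM counted for Gm8797.

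The level of Ubb differed between immune classes, a contrast that did not enter the choice of the gene. CD4 T cells had the highest level, at 2312 CPM ± 226 (SD, n = 7 mice, both genotypes), ahead of other T cells at 1854 CPM ± 188 (n = 8) and CD8 T cells at 1750 CPM ± 68.1. Mature DC (1748 CPM ± 190), B (1638 CPM ± 137), TAM (1633 CPM ± 180) and DC1 (1609 CPM ± 174) followed. The lowest levels were those of cMono (1532 CPM ± 184), NK (1466 CPM ± 170), DC2 (1411 CPM ± 103), microglia (1328 CPM ± 128) and ncMono (1137 CPM ± 145).

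CD4 T cells were above each of the 11 other classes in a two-sided exact permutation test (sign flips within mouse on log2(CPM + 1), adjusted over 132 pair tests of both genes), and against other T, the nearest class, the adjusted p was 0.0303. Neighbours in the order differed for DC1 and cMono and for microglia and ncMono (adjusted p = 0.0485 each, same exact test), while the other 8 neighbouring pairs did not pass. The gap between the ends of the order, CD4 T minus ncMono, was 1.03 ± 0.08 (SE) on the log2 scale. In all, 42 of 66 class pairs of Ubb passed, and the share of all genes that would pass was not computed. As background, the share of genes with 1 direction in every mouse was 8.12% to 58.2% over the class pairs, and 11.3% for CD4 T against other T. For CD4 T it was 48.8% against ncMono, 56.5% against cMono, 51.5% against microglia, 53.1% against DC2 and 49.0% against mature DC. Against DC1 it was 43.4%, against B 37.2%, against NK 26.5% and against CD8 T 23.6%. It was 33.4% for cMono against DC1 and 37.7% for microglia against ncMono. Ubb itself did not go in 1 direction in these pairs. It was higher in cMono than in DC1 in 2 of 8 mice, and higher in microglia than in ncMono in 6 of 7. A pair can pass the exact test without 1 direction in every mouse. The share therefore does not match the rule of the calls. For TAM it was 31.9% against microglia, 37.8% against cMono, 29.2% against ncMono, 26.4% against DC1, 33.6% against DC2, 36.3% against mature DC, 55.3% against NK, 48.7% against CD8 T and against CD4 T alike, 38.4% against other T and 34.6% against B. Leaving out 1 mouse ended all of these Ubb calls for 7 of the 8 mice, WT mouse 1 being the exception with 41 pairs, and the lowest adjusted p was then 0.0516 to 0.0579 with 0 called pairs turning direction. The smallest p of the exact test rises from 0.00781 with 8 mice to 0.0156 with 7 and 0.0312 with 6. These leave-outs therefore cannot tell an unstable difference from this higher floor. WT mouse 1 had too few ncMono, mature DC and CD4 T cells to enter their pairs. With CPM taken without mt- and ribosomal protein genes, 3 of the called Ubb pairs had the other direction. With each cell given the same weight, 1 of them did.

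Rps27a, which codes ubiquitin fused to a small-subunit ribosomal protein, had a slightly lower mean in CaMKK2 KO mice. Over all cells it was 3745, 3449, 3516 and 3815 CPM in the WT mice and 3323, 2911, 3695 and 2716 CPM in CaMKK2 KO mice. One CaMKK2 KO mouse lay within the WT range and the others below it. The means were 3631 CPM ± 176 (SD, n = 4) and 3161 CPM ± 437, a log2 ratio of -0.20 ± 0.11 (SE).

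The log2 ratio of Rps27a was below 0 in 9 classes and above 0 in 3, and the genotypes stood apart in 3. In cMono the WT mice were at 3953, 3346, 3337 and 3373 CPM and the CaMKK2 KO mice at 3052, 2560, 3007 and 2435 CPM (-0.34 ± 0.12 SE). In CD8 T cells the values were 4915, 4197, 4233 and 4442 CPM against 3781, 3589, 4060 and 3381 CPM (-0.26 ± 0.09). In other T cells they were 5124, 3840, 4349 and 4426 CPM against 3275, 3712, 3785 and 3413 CPM (-0.32 ± 0.10). All CaMKK2 KO mice were below all WT mice in these 3 classes, and so were 5.56%, 3.84% and 5.43% of the genes tested there, respectively. For comparison, the share was 6.53% over all cells, 9.71% in TAM, 7.54% in microglia, 4.53% in ncMono, 3.01% in DC1, 5.40% in DC2, 4.76% in mature DC, 4.20% in NK, 10.9% in CD4 T and 6.12% in B. Since Rps27a was chosen with this contrast known, nothing is read from its count.

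Macrophage transcripts were also counted in the lymphocyte classes. The summed level of 7 TAM markers was 17763 CPM in TAM of WT mice and 15072 CPM in TAM of CaMKK2 KO mice. The gates used these same 7 genes. TAM needed at least 30 UMIs of the C1q genes, and lymphocyte classes had to hold fewer than 30 of them and fewer than 10 of the others. The gap between TAM and lymphocytes is thus set by the gates, which also capped the lymphocyte values. It was 151 CPM (136 to 169) in CD8 T cells of WT mice and 95.5 CPM (74.3 to 118) in those of CaMKK2 KO mice, and 164 CPM (137 to 193) and 134 CPM (93.3 to 180) in other T cells, where the mice overlapped. In CD4 T cells it was 259 CPM (247 to 273) in the WT mice and 118 CPM (87.5 to 149) in CaMKK2 KO mice, and in NK cells 141 CPM (133 to 159) and 100 CPM (79.0 to 112), without overlap in either class. All 7 markers had a UMI in these classes, apart from Mertk in other T, which was at 0. Their part in the levels of the ubiquitin genes was not tested.

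In several classes Rps27a lay near the other ribosomal protein genes of its subunit, which was not tested. The median log2 ratio of 30 such genes was -0.22 in TAM, where Rps27a was also at -0.22 ± 0.14 (SE). It was -0.28 in cMono, -0.29 in CD8 T, -0.35 in other T and -0.37 in mature DC, where Rps27a had its lowest ratio (-0.35). In microglia the median was 0.15 and Rps27a had its highest ratio (0.14). It lay above the median in B cells, where Rps27a was at 0.08 ± 0.07 and the median at -0.05. The median was 0.02 in CD4 T and -0.16 in DC2. There Rps27a was at 0.13 ± 0.07 (SE) and at -0.01 ± 0.07, respectively, and so above the median in both classes too. Over the processing alternatives Rps27a ran from 0.07 to 0.20 and from -0.07 to 0.03. These ranges are not set against the medians, which were taken without the alternatives. The medians of all genes tested lay between -0.14 and 0.11. Within a class, 0 to 2 of the 30 genes passed the edgeR test with Benjamini-Hochberg adjustment, namely Rps15a (-0.45, adjusted p = 0.0463) and Rps19 (-0.52, adjusted p = 0.0459) lower in NK cells and Rps2 (0.58, adjusted p = 0.0383) higher in B cells, all named after their values were seen. Of all genes, 4.58% were called in NK and 3.23% in B cells.

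Over the classes Rps27a had another order than Ubb. DC2 (4537 CPM ± 222, SD, n = 7 mice), NK (4406 CPM ± 638) and B (4399 CPM ± 233) were at the top, and then CD8 T (4075 CPM ± 491), other T (3991 CPM ± 608) and ncMono (3838 CPM ± 345). DC1 (3565 CPM ± 544), CD4 T (3157 CPM ± 218), cMono (3133 CPM ± 486) and TAM (3036 CPM ± 463) came next, and microglia (2730 CPM ± 215) and mature DC (2591 CPM ± 590) were lowest. None of the 11 neighbouring pairs passed, but 43 of 66 pairs did, among them DC2 above mature DC by 0.77 ± 0.12 (SE, log2 scale) in 6 of 6 mice with both classes (adjusted p = 0.0485, two-sided exact sign flips, and 42.6% of genes had 1 direction in all of these mice). As for Ubb, and with the same limit of the exact test, leaving out any mouse other than WT mouse 1 left 0 pairs past the threshold.

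The sum of the 3 members over all cells was 5157 CPM ± 123 (SD, n = 4) in the WT mice and 4993 CPM ± 330 in CaMKK2 KO mice, and the groups overlapped. The sum was lower in all CaMKK2 KO mice in CD8 T (ratio 0.894) and other T cells (0.899), higher in all of them in CD4 T cells (1.06), and overlapped in the other 9 classes. Of all genes, 3.84% stood apart downward in CD8 T, 5.43% downward in other T and 8.83% upward in CD4 T. In CD4 T cells Ubb and Rps27a each overlapped, and the lowest CaMKK2 KO mouse (5652 CPM) was above the highest WT mouse (5622 CPM) by less than the Gm8797 level of the CaMKK2 KO mice. Nothing is read from these counts, since Gm8797 was chosen on this contrast.

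**Figure D3:**
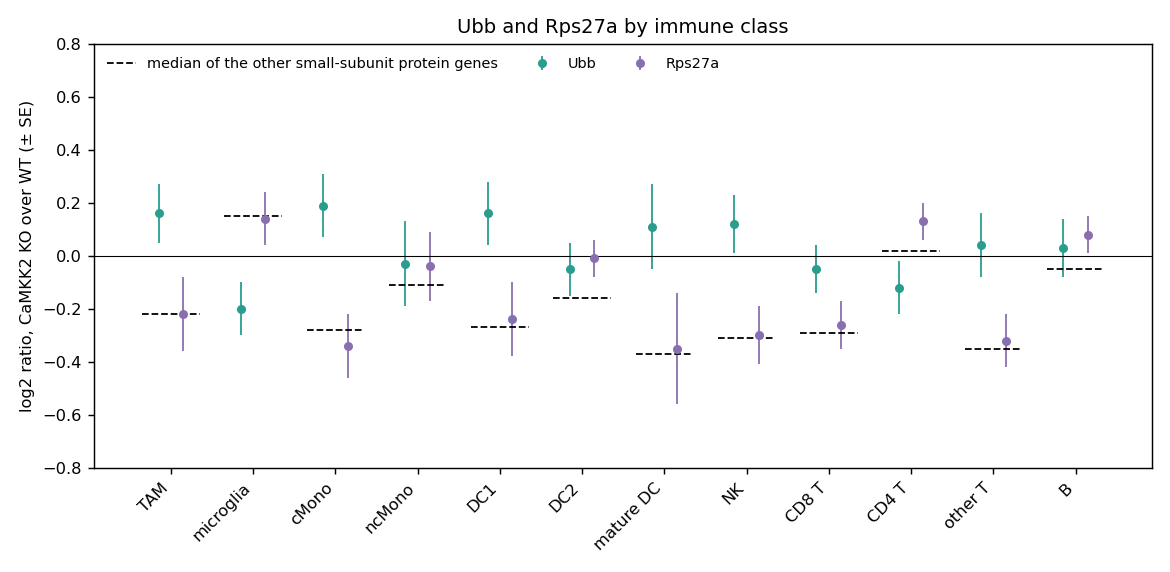
Points are log2 ratios of CaMKK2 KO over WT for Ubb and Rps27a in each immune class with their standard errors from the edgeR fit (n = 3 or 4 mice per genotype), and dashed lines are the median of the other small-subunit ribosomal protein genes. Ubb lies between -0.20 and 0.19. Rps27a, between -0.35 and 0.14, lies near the dashed line in TAM, microglia and mature DC and above it in B, CD4 T and DC2.

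Other genes of the ubiquitin system, from a list of 85, gave few calls between the genotypes outside B cells. Over all cells 84 were tested and 0 were called by edgeR (11 at an unadjusted p of 0.05) and 2 by DESeq2. Their median log2 ratio was 0.00 beside -0.04 for all genes, of which 1.50% were called by edgeR. In 10 classes, with 53 to 82 of them tested, 0 were called by edgeR, 0 to 12 had an unadjusted p under 0.05, and 0 or 1 were called by DESeq2. Of all genes, edgeR called 1.18% in microglia, 1.56% in cMono, 0.855% in ncMono, 1.21% in DC1, 0.835% in DC2, 0.241% in mature DC, 4.58% in NK, 1.48% in CD8 T, 3.19% in CD4 T and 0.427% in other T. The matching shares of all genes at an unadjusted p or by DESeq2 were not computed, so nothing is read from those counts.

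The 5 genes of the immunoproteasome and its PA28 activator, which are known from the making of peptides for antigen presentation, had ratios above 0 over all cells without passing the adjustment. Their median log2 ratio was 0.62 over all cells, 0.78 in TAM, 0.80 in cMono and 0.54 in microglia, and from 0.10 in other T to 1.26 in B over the 12 classes. Psmb9, a catalytic subunit named after its values were seen, was at 0.96 ± 0.25 (SE) over all cells (unadjusted p = 0.00412, adjusted p = 0.124 by edgeR). It was at 1.08 in TAM (adjusted p = 0.0567 by edgeR) and 1.06 in microglia (adjusted p = 0.0645 by edgeR). All CaMKK2 KO mice were above all WT mice for Psmb9 in both classes and over all cells. Of all genes tested, 4.01% stood apart in that direction in TAM, 2.72% in microglia and 4.24% over all cells. Psmb8, another catalytic subunit named in the same way, was at 0.62 over all cells (unadjusted p = 0.0102 by edgeR, not passing the adjustment). It was at 0.80 in TAM (adjusted p = 0.0721 by edgeR), and the genotypes stood apart in TAM and over all cells but overlapped in microglia. For Psmb10, Psme1 and Psme2 the mice overlapped over all cells, in TAM and in microglia.

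In TAM, where 2.22% of genes were called by edgeR, 1 of 84 tested passed by edgeR, 18 had an unadjusted p under 0.05, and 4 were called by DESeq2. For the last 2 counts the share of all genes was not computed either. The gene called by edgeR was Uchl5, a deubiquitinase of the proteasome, which fell from 54.9 CPM ± 5.23 (SD, n = 4) to 38.3 CPM ± 4.68 (-0.51 ± 0.11 SE, adjusted p = 0.0493 by edgeR). Without CaMKK2 KO mouse 3, 5 list genes were called in TAM and 4 in NK cells, and without any 1 of the other 7 mice, or with TMM scaling, 0 were called in TAM.

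In B cells 7 of the 30 list genes tested were called by edgeR, all higher in CaMKK2 KO mice, where 3.23% of all genes were called. Whether B cells differ in this from the other classes was not tested. They were 4 of 5 genes of the immunoproteasome and its PA28 activator, 2 of 13 tested of the 20S core, and Isg15, an interferon-induced ubiquitin-like protein. Isg15 went from 3.92 CPM ± 7.85 (0 to 15.7) to 181 CPM ± 156 (63.4 to 410) (log2 ratio 4.58 ± 0.85 SE, adjusted p = 0.0224 by edgeR). Psme2, a PA28 subunit, went from 84.0 CPM ± 30.3 (SD, n = 4) to 297 CPM ± 121, and Psme1, its partner subunit, from 263 CPM ± 33.0 to 589 CPM ± 183. Psmb4, a 20S subunit with the smallest of these increases, went from 112 CPM ± 18.1 to 199 CPM ± 27.7 (0.89 ± 0.22 SE, adjusted p = 0.0482 by edgeR). The summed level of the 7 TAM markers in B cells was 328 CPM (221 to 439) in WT mice and 130 CPM (87.2 to 194) in CaMKK2 KO mice, and its part in these differences was not tested. Genes entered this test with at least 200 UMIs summed over both genotypes. CaMKK2 KO mice gave more B cells (199 against 159) with more UMIs per cell (median 5041 against 3580). A gene high in these mice could thus pass the filter more easily than a gene high in WT mice. The direction of the 7 calls is therefore not read. The calls were not stable, with 0 list genes called in B cells without WT mouse 1, WT mouse 2, WT mouse 4, CaMKK2 KO mouse 2 or CaMKK2 KO mouse 4, or with possible doublets kept. Without WT mouse 3 there were 4, and without CaMKK2 KO mouse 3 there were 10.

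Among 10 stress genes, Hspa1a and Hspa1b, inducible heat shock proteins of the Hsp70 family, were the ones called over all cells, both lower (-1.01, adjusted p = 0.0349, and -1.24, adjusted p = 0.00330, by edgeR; named after their values were seen). The other 8 did not pass there. Of all genes, 1.50% were called over all cells. Within classes, 2 of 8 stress genes tested were called lower in ncMono, where 0.855% of all genes were called. In NK, with 4.58% of all genes called, 2 of 10 were called lower and 1 higher. Called lower were also 1 of 9 in microglia (1.18% of all genes called) and 1 of 10 in cMono (1.56%). The same held for 1 of 8 in DC1 (1.21%) and 1 of 9 in DC2 (0.835%).

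The genes whose levels went most closely with each member were found over 92 sums of a mouse and class, among 11416 genes, by Pearson's r of log2(CPM + 1). These sums share mice and libraries, so r is a description. For Gm8797 they were Eif3j2 (r = 0.90), Ifi202b (0.82), Ifi44l (0.81), Gm48682 (0.76) and Lhfpl4 (0.73), while Ubb was at 0.13. The 92 sums mix both genotypes, and Gm8797 was chosen on that contrast. Genes that part the genotypes in many classes therefore rank high, and nothing is read from this list. For these genes r within a genotype was not taken. Within the 47 CaMKK2 KO sums alone, r between Gm8797 and Ubb was 0.68, and within the 45 WT sums it was 0.14. The WT sums held at most 76 UMIs of Gm8797 and some held 0. Counting error weighs on r there, so r is not compared between the genotypes.

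For Ubb they were Adam19 (0.69), Il2ra (0.69), Izumo1r (0.69), Ankrd12 (0.68) and Tnfrsf4 (0.68). Il2ra, Izumo1r and Tnfrsf4 code surface receptors known from regulatory T cells. For Rps27a they were all genes of ribosomal proteins, Rpl35a (0.92), Rps28 (0.91), Rpl26 (0.90), Rps25 (0.88) and Rpl6 (0.88).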

How the data were processed

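The authors demultiplexed the runs with bcl2fastq (2.20) and aligned them to mm10 with Cell Ranger 4.0.0, which runs STAR (2.7.5c), as named in the submitters' processing notes. The deposited matrices hold raw UMI counts per gene and barcode, hashtags included, without normalization. Reads that fit 2 genes equally well are not counted by Cell Ranger, so near-identical genes such as Gm8797 and Ubb can lose reads.

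HTODemux of Seurat 5.3.0 (quantile 0.99) gave each barcode its mouse and kept 5974 WT and 6696 CaMKK2 KO singlets. Cells more than 3 median absolute deviations from the median of UMIs or genes, on a log scale and to either side, were removed with scuttle 1.12.0. So were cells that far above the median mt- percentage (633 and 799 cells in all). The highest Scrublet scores in scanpy 1.11.5 were also removed (222 and 169). Classes were set by summed UMIs of markers, with thresholds chosen after the marker histograms were seen, and 391 WT and 443 CaMKK2 KO cells had no class. UMIs were summed per mouse and class (at least 10 cells), and CPM are UMIs per 1000000 of that sum. Genes with at least 200 UMIs in a class were tested with edgeR 4.0.16 (quasi-likelihood, Benjamini-Hochberg over all genes of the class, threshold 0.05), which was tested on simulated data with 4-fold changes in 200 genes. It recovered 99.0% of them for TAM (9510 genes, 3.41% of calls false), 99.5% for CD8 T (5606 genes, 3.86% false) and 99.5% for DC1 (2489 genes, 6.57% false), and smaller changes were not simulated. Class pairs were tested by exact sign flips within mouse, whose smallest p was 0.00781 with 8 mice. Mice are numbered by their hashtags. Members and lists were chosen with earlier results of these data known. The named genes were the members, the 2 highest and 2 lowest ratios among list genes called in each class, and the 5 genes most like each member. Results of some other genes are not reported here.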

Additional observations from a re-analysis of the deposited data

Results flagged for a closer look

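In groups of 4 mice, 4 of 110 had 1 mouse apart from the others by Dixon's criterion, or 3.64%, where chance gives about 1 in 20. Gm8797 in CD4 T cells of CaMKK2 KO mice was 290 CPM in 1 mouse and 200 to 215 CPM in the others. Rps27a was 3953 CPM in 1 WT mouse against 3337 to 3373 CPM in cMono, and 3497 CPM in 1 CaMKK2 KO mouse against 3191 to 3212 CPM in CD4 T cells. The share of Gm8797 among Ubb plus Gm8797 UMIs was 7.04% in CD8 T cells of 1 CaMKK2 KO mouse against 8.62% to 8.90%.

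The sum of Ubb, Gm8797 and Rps27a was below every WT mouse in CD8 T (ratio of means 0.894) and other T cells (0.899) of all CaMKK2 KO mice, and above every WT mouse in CD4 T cells (1.06). Of all genes, 3.84%, 5.43% and 8.83% stood apart in these directions, and the sum holds Gm8797, which was chosen on this contrast. The difference between these classes was not tested.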

How the results depend on the processing

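Of 119 values that answer a comparison, 94 moved by less than the limits set for them and 25 by more. These limits were the SD between mice for ratios and shares, and a fixed factor for counts. Among 1093 further values, 57 were called genotype ratios that lost their call, and 24 moved by more than the limits. Only the 8 called ratios of the ubiquitin system list, refitted under several settings, could lose a call. The other further values had no test, so the 57 are not to be read as a share of 1093. None of these 8 ratios changed sign. The number of ubiquitin system calls summed over 12 classes was 8, and became 3 with possible doublets kept, 32 with no filter on low counts, 13 with DESeq2 and 0 to 22 without 1 mouse. The pairs of classes past the threshold were 42 for Ubb and 43 for Rps27a. They became 27 for Ubb and 35 for Rps27a with each cell given the same weight. In that setting 1 called pair of each gene had the other direction. Without 1 mouse they became 0 to 41 for Ubb and 0 to 42 for Rps27a. With 7 mice the exact test cannot go below 0.0156 before adjustment, and with 6 mice not below 0.0312. With CPM without mt- and ribosomal protein genes, 52 Ubb pairs passed, 35 of them in common and in the same direction, and 3 pairs called before had the other direction. The Gm8797 ratio over all cells stayed between 4.65 and 4.83, that of Ubb between 0.07 and 0.17 and that of Rps27a between -0.28 and -0.13 (log2). No pairing of WT mice with CaMKK2 KO mice was possible because the labels give no replicate numbers and the hashtags only name mice. Classes were paired within mouse. With 1 channel per genotype, channel and genotype cannot be told apart. The depth of B, ncMono and other T cells in WT left 3 to 6 UMIs of Gm8797.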
